A study of Mus musculus with 8 samples.

Results

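Glial cell line-derived neurotrophic factor (GDNF) signals to spermatogonia through a receptor of 2 proteins, and 10 genes of this route were followed here in germ cells of mice with a conditional knockout of Kdm1a, the gene of a histone demethylase. The set holds both receptor genes, Gfra1 and Ret, and 8 genes of transcription factors reported to respond to GDNF: Etv5, Bcl6b, Lhx1, Pou3f1, Egr2, Egr3, Egr4 and T. They were taken by symbol from the 17589 genes of the expression table, in which these 10 genes hold 25 of 45550 transcript entries. All 10 had values and passed the filter of a mean of 1 FPKM, the unit of the table, in which fragments are scaled to the length of the transcript and the size of the library.

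GDNF is secreted by Sertoli and other somatic cells of the testis, binds the co-receptor GFRA1 on the germ cell surface and so brings together and activates the receptor tyrosine kinase RET. RET recruits adaptor proteins and passes the signal on to Src family kinases, the PI3 kinase and AKT route and the ERK kinases. In cultured mouse spermatogonial stem cells this raises the RNA of several transcription factors that support self-renewal.

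The 8 libraries came from C57BL/6 mice at 6 days after birth that carried the GOF/deltaPE-Oct4/GFP reporter, which marks primitive germ cells. In both groups alike, testes were digested with collagenase and trypsin, spermatogonia were sorted by GFP fluorescence, and stranded mRNA libraries were made. The groups were 4 controls and 4 Kdm1a conditional knockouts; no source used here gives the Cre line or the alleles, and the labels do not say that libraries came from separate animals, so p-values reflect the spread among these libraries alone, and that spread may be technical. KDM1A removes methyl groups from lysine 4 of histone H3.

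Kdm1a, the targeted gene, stood at 48.1 to 92.0 FPKM in the control libraries and 14.1 to 17.3 FPKM in the knockout libraries, lower in every one of the latter (log2 change -1.92, adjusted p = 6.88e-05 by limma). From the spacing of the lowest values, control libraries were estimated to hold 60250000 to 67750000 fragments and knockout libraries 45000000 to 63750000. At that depth 1 FPKM over a transcript of 2 kilobases stands for 90.0 to 135.5 fragments. Knockout replicate 2 was the shallowest library and had 1642 transcripts at 0, against 506 to 734 in the other libraries.

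The promoter sequence was read for the factor genes because several of them were lower together in the knockout. RefSeq promoter entries on GRCm38.p6 matched 6 of the 10 members, Egr4, Egr2, Lhx1, Etv5, T and Gfra1, with 11 windows. Egr2 and Egr4 are shown as the pair of early growth response genes that passed the test, each as the 250 bases upstream of a transcript start, 5′ to 3′ on the gene's strand, with capitals on every match of the motifs searched. The Egr2 window is chr10:67537619-67537868 on the plus strand, before the start of the Egr2-201 transcript at 67537869. The Egr4 window is chr6:85513590-85513839 on the minus strand, before the start at 85513589. Neither overlaps an annotated exon.
Egr2: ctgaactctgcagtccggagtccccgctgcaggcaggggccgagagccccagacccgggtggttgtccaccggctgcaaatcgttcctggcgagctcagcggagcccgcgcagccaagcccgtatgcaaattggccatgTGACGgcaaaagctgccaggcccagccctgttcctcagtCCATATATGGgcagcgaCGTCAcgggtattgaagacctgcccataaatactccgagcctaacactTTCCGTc
Egr4: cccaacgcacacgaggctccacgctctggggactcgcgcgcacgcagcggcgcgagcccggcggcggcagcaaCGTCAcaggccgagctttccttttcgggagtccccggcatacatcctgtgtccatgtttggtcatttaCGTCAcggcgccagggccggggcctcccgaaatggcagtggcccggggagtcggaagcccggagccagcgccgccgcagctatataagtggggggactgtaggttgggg

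Searches on both strands covered 7 motifs: the CArG box bound by serum response factor, TGACGTCA and its first part TGACG (cyclic AMP response elements), GCGGGGGCG or GCGTGGGCG (early growth response proteins), ACGGAA or CCGGAA (ETS proteins), GGGCGG (Sp proteins) and TATAAA. The Egr2 window held a CArG box that starts 72 bases before the transcript start, TGACG or its reverse complement at 111 and 55 bases before it, and an ETS match at 7 bases before it. A second Egr2 window, which ends before a start at 67537566, held another CArG box. The Egr4 window held 2 matches to TGACG, at 177 and 109 bases before the start, and no CArG box. Lhx1 held 1 match to TGACG, Gfra1 1 ETS match, and the T window and 1 of the Etv5 windows only GGGCGG. No window of a member held TGACGTCA, the early growth response motif or TATAAA. Among all 32851 windows of this length, 1.47% held a CArG box, 17.8% TGACG, 16.2% the ETS motif, 32.7% GGGCGG, 12.4% TATAAA, 3.06% the early growth response motif and 1.55% TGACGTCA. These matches describe the letters of the windows and no binding was measured.

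Of the 10 members, 6 were lower in the knockout (Ret, Etv5, Pou3f1, Egr2, Egr4 and T), 1 was higher (Bcl6b) and 3 did not pass the test (Gfra1, Lhx1 and Egr3). Genes were tested by limma on log2(FPKM + 1) and called at an adjusted p under 0.05 over 13483 genes; 37.5% of all genes tested were called, 12.1% as lower and 25.3% as higher. The members' median log2 change was -0.57, that of all genes tested 0.09. All 4 knockout values lay below all 4 control values for 4 members (Ret, Pou3f1, Egr4 and T), as for 12.5% of all genes, and above them for Bcl6b, as for 26.1%. When every library was scaled to the same FPKM total, the calls of Ret, Etv5, Pou3f1, Egr2 and Egr4 were lost, and Etv5 and Egr2 changed sign to 0.21 and 0.03 on the log2 scale. Of that total 1 entry, Mir5105, made up 61.3% to 77.1% of all FPKM in control libraries and 29.4% to 52.7% in knockout libraries. Scaling after removal of small RNA genes by annotation type alone, which left Mir5105 in, also turned the sign of Ret, to 0.02.

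**Figure D1:**
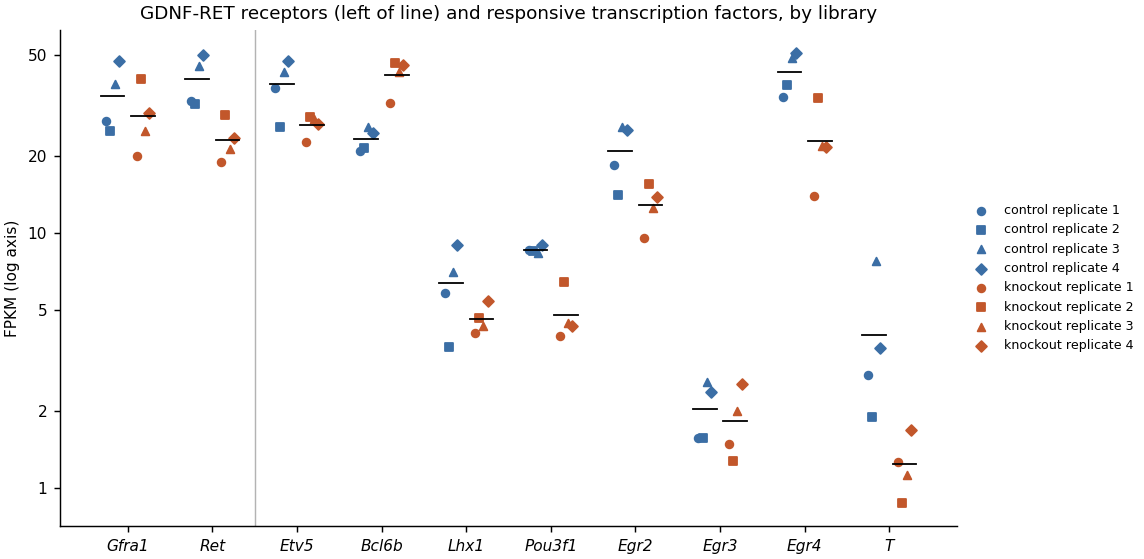
FPKM (log axis) of the 10 members, with blue symbols for the 4 control and orange symbols for the 4 knockout libraries, a marker shape for each replicate and a black line at each group mean. Knockout symbols of Ret, Pou3f1, Egr4 and T lie below all of the control symbols, those of Bcl6b lie above them, and the groups overlap for the other 5 members.

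Ret and Gfra1, the kinase and its co-receptor, differed in their outcome. Ret, on chr6:118151745-118197718 (minus strand), stood at 33.0, 32.2, 45.3 and 49.8 FPKM in control replicates 1 to 4 and at 19.0, 28.9, 21.4 and 23.6 FPKM in knockout replicates 1 to 4. Every knockout library was below every control library. The mean fell 1.73-fold, from 40.1 ± 8.82 to 23.2 ± 4.25 FPKM (SD, n = 4 per group), a log2 change of -0.75 (SE 0.17, limma adjusted p = 0.00754).

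Gfra1, on chr19:58235604-58455909 (minus strand), stood at 27.4, 25.2, 38.6 and 47.3 FPKM in the controls and at 20.1, 40.1, 25.2 and 29.6 FPKM in the knockouts. The groups overlapped, since knockout replicate 2 was above 3 of the controls. The means were 34.6 ± 10.3 and 28.7 ± 8.47 FPKM, with a log2 difference of -0.26 (95% interval -0.80 to 0.28, limma adjusted p = 0.428). Without control replicate 4 the difference was -0.10, without knockout replicate 1 it was -0.11 and without knockout replicate 2 it was -0.43, none of which passed. The interval includes the change seen for Ret, and the difference between the genes was not tested.

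Within a library the ratio of Gfra1 to Ret does not depend on how libraries are scaled. Control replicates 1 to 4 had ratios of 0.830, 0.782, 0.853 and 0.949, and knockout replicates 1 to 4 ratios of 1.06, 1.39, 1.18 and 1.25. Gfra1 was thus below Ret in all 4 controls and above it in all 4 knockouts. The ratios given here and below were picked after the values were seen and are descriptions.

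Etv5 and Bcl6b are a pair of factors needed for long-term maintenance of the stem cells, and they moved in opposite directions. Etv5, an ETS factor on chr16:22381309-22439719 (minus strand), stood at 37.0, 26.0, 43.0 and 47.4 FPKM in the controls and at 22.7, 28.5, 28.1 and 26.7 FPKM in the knockouts. Control replicate 2 lay inside the knockout range, so the groups overlapped. The mean fell 1.45-fold, from 38.4 ± 9.27 to 26.5 ± 2.65 FPKM, a log2 change of -0.49 (SE 0.17, limma adjusted p = 0.0472). This call was lost without any 1 of control replicates 1, 3 and 4 or knockout replicates 1, 3 and 4, with adjusted p of up to 0.120.

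Bcl6b, a zinc finger repressor on chr11:70224128-70229798 (minus strand), stood at 20.9, 21.7, 26.1 and 24.7 FPKM in the controls and at 32.5, 46.3, 42.7 and 45.5 FPKM in the knockouts. Every knockout library was above every control library. The mean rose 1.79-fold, from 23.3 ± 2.46 to 41.8 ± 6.37 FPKM, a log2 change of 0.81 (SE 0.12, limma adjusted p = 0.00103). Bcl6b was called without each library in turn and under all 14 other alternatives tried.

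The order of Bcl6b turned over between the groups against Etv5, Ret and Egr4. Bcl6b over Etv5 was 0.520 to 0.832 in control libraries and 1.43 to 1.70 in knockout libraries. Bcl6b over Ret was 0.495 to 0.672 and 1.60 to 1.99, and Bcl6b over Egr4 was 0.484 to 0.612 and 1.36 to 2.32. In each of these 3 ratios the groups did not overlap. The ratios of Etv5, Egr4 and Egr2 to Ret overlapped between the groups, at 0.807 to 1.12 against 0.984 to 1.31, 1.02 to 1.18 against 0.739 to 1.17 and 0.439 to 0.575 against 0.503 to 0.584.

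**Figure D2:**
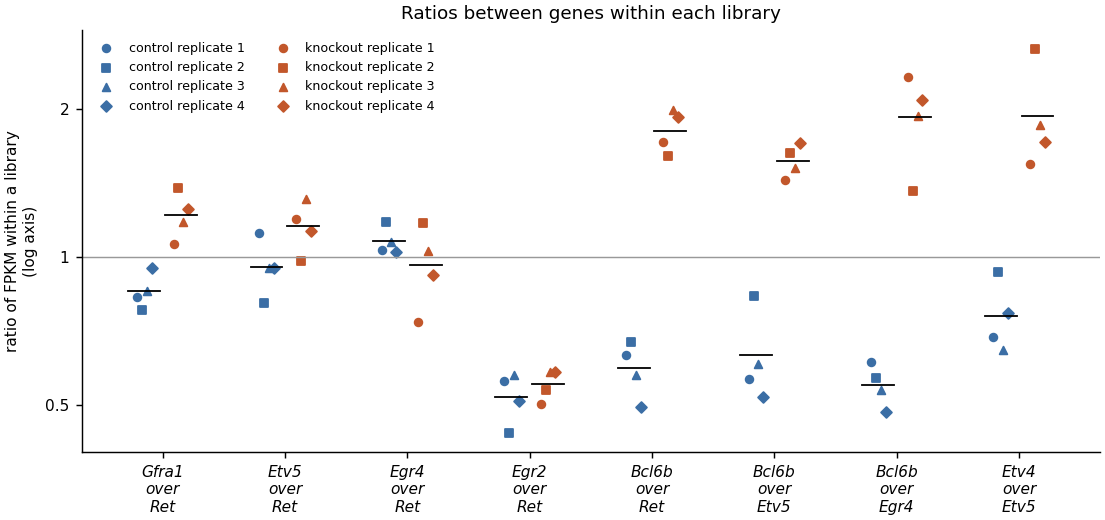
Ratios of FPKM between pairs of genes within each library (log axis), with blue symbols for controls, orange symbols for knockouts, a marker shape for each replicate and a black line at each group mean. Control and knockout symbols are apart for Gfra1 over Ret, the 3 ratios with Bcl6b on top and Etv4 over Etv5, and they overlap for Etv5, Egr4 and Egr2 over Ret.

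Pou3f1 and Lhx1 code for homeodomain proteins of the POU and LIM classes. Pou3f1, on chr4:124656807-124660655 (plus strand), varied little among the controls, at 8.58, 8.48, 8.38 and 8.97 FPKM, and stood at 3.96, 6.41, 4.43 and 4.31 FPKM in the knockouts. All 4 knockout libraries were lower, with knockout replicate 2 nearest to the controls. The mean fell 1.80-fold, from 8.60 ± 0.256 to 4.78 ± 1.11 FPKM, a log2 change of -0.75 (SE 0.13, limma adjusted p = 0.00170).

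Lhx1, on chr11:84518284-84525535 (minus strand), stood at 5.82, 3.57, 7.07 and 8.998 FPKM in the controls and at 4.07, 4.63, 4.31 and 5.44 FPKM in the knockouts. Control replicate 2 was below all of the knockouts and the other controls were above them. The log2 difference was -0.34 (95% interval -0.82 to 0.14, limma adjusted p = 0.241), and it did not pass in 7 of the 8 fits that left out a library. It was -0.55 without control replicate 2, where it passed (adjusted p = 0.0254), and -0.18 without control replicate 4 (adjusted p = 0.511).

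The 3 early growth response genes code for zinc finger factors that are induced within minutes of growth factor signalling in many cell types. Egr4, on chr6:85511121-85513589 (minus strand), stood at 34.1, 38.1, 48.5 and 51.0 FPKM in the controls and at 14.0, 34.0, 22.0 and 21.8 FPKM in the knockouts. Every knockout library was lower, and knockout replicate 2 came close to control replicate 1. The mean fell 1.87-fold, from 42.9 ± 8.10 to 23.0 ± 8.24 FPKM, a log2 change of -0.92 (SE 0.24, limma adjusted p = 0.0136).

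Egr2, on chr10:67535475-67542188 (plus strand), stood at 18.5, 14.2, 26.0 and 25.4 FPKM in the controls and at 9.54, 15.5, 12.5 and 13.8 FPKM in the knockouts. Knockout replicate 2 exceeded control replicate 2, and the groups overlapped there alone. The mean fell 1.64-fold, from 21.01 ± 5.70 to 12.8 ± 2.53 FPKM, a log2 change of -0.65 (SE 0.20, limma adjusted p = 0.0324). Leaving out any 1 of control replicates 1, 3 and 4 or knockout replicates 1, 3 and 4 ended the call, with adjusted p of 0.0520 to 0.0880.

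Egr3, on chr14:70077203-70082614 (plus strand), was low, at 1.57, 1.57, 2.61 and 2.39 FPKM in the controls and 1.49, 1.27, 2.01 and 2.57 FPKM in the knockouts. The groups overlapped, with a log2 difference of -0.10 (95% interval -0.50 to 0.29, limma adjusted p = 0.671), and of -0.22 to -0.0042 with each library left out in turn, where it never passed. The relative Egr1, which is not among the members and was named after its values were seen, had the highest level of the 4 family genes, at 63.1 ± 14.3 against 74.4 ± 18.7 FPKM, and did not pass (adjusted p = 0.460).

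T, or brachyury, a T-box factor on chr17:8434423-8442496 (plus strand), stood at 2.77, 1.90, 7.76 and 3.53 FPKM in the controls and at 1.27, 0.870, 1.12 and 1.69 FPKM in the knockouts. Every knockout library was below every control library, and control replicate 3 was far above the other controls. The mean fell 3.22-fold, from 3.99 ± 2.60 to 1.24 ± 0.343 FPKM, a log2 change of -1.04 (SE 0.30, limma adjusted p = 0.0220). The log2 change understates the fold at levels this close to the pseudocount of 1 FPKM. Without knockout replicate 3 the adjusted p was 0.0534.

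The receptors and the factors did not part as groups. Each library's mean log2(FPKM + 1) over Gfra1 and Ret was 5.22 ± 0.36 in the controls and 4.72 ± 0.32 in the knockouts, a difference of -0.51. Over the 8 factors it was 3.70 ± 0.30 and 3.26 ± 0.18, a difference of -0.44. The factor mean minus the receptor mean was -1.72 to -1.41 in control libraries and -1.75 to -1.34 in knockout libraries. Its change of 0.07 was smaller than its spread between replicates (SD 0.14 and 0.19). Among the receptors 1 of 2 passed the test, as lower, and among the factors 5 of 8 passed as lower and 1 of 8 as higher. Without Bcl6b the factor mean differed by -0.61.

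In the controls Egr4 had the highest level, at 42.9 FPKM, followed by Ret, Etv5, Gfra1, Bcl6b and Egr2, and the ranges of all neighbours in this order overlapped. A gap then separated Egr2 from Pou3f1, below which came Lhx1, T and Egr3, again with overlapping ranges. In the knockouts Bcl6b came first, at 41.8 FPKM, ahead of Gfra1, Etv5, Ret, Egr4 and Egr2, and the range of Egr2 was apart from that of Pou3f1 and that of Lhx1 from that of Egr3. As a percentile of the group mean levels of all genes tested, Bcl6b went from 70.0 to 82.9, Egr4 from 84.0 to 67.9 and T from 27.2 to 3.22.

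Within a group, many members had their highest or lowest value in the same library. Such counts were not made over all genes, so they are not shown to be particular to the members. Control replicate 4 was the highest control for 6 members and control replicate 3 for the other 4, while control replicate 2 was the lowest for 7. Knockout replicate 1 was the lowest knockout for 8 members and knockout replicate 2 the highest for 7. This spread is the error against which the changes above were tested.

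The summed level of 7 markers of undifferentiated spermatogonia was 249 to 281 FPKM in the controls and 128.5 to 152.2 FPKM in the knockouts. Of the 7, 5 were called lower, Cdh1 and Upp1 were not called, and none was at 0. In bulk samples fewer cells of a type and less RNA per cell cannot be told apart. Markers of differentiating spermatogonia summed to 261 to 352 FPKM and 340 to 418 FPKM, with 2 of 6 called higher, Sohlh2 and Rhox13. Kit had a lower mean in the knockouts, at 45.9 ± 16.4 and 26.7 ± 7.68 FPKM (limma adjusted p = 0.0710). It was not called, nor were Stra8, Sohlh1 and Dmrtb1. The 8 general germ cell markers summed to 1207 to 1420 FPKM and 1263 to 1469 FPKM, with 1 called in each direction. Sertoli cell markers summed to 17.5 to 53.5 FPKM and 24.2 to 65.3 FPKM, with 1 of 8 tested called higher. Endothelial markers summed to 8.40 to 14.3 FPKM and 12.6 to 13.2 FPKM, with 2 of 4 tested called higher and 1 lower. Myoid markers summed to 8.62 to 12.9 FPKM and 6.88 to 11.3 FPKM, with 1 of 3 tested called lower. Few markers of the remaining types were analysed here: 2 of 7 for Leydig cells, 1 of 8 for macrophages and 2 of 6 for erythroid cells. The Leydig markers summed to 1.79 to 2.65 FPKM and 1.91 to 3.27 FPKM, the macrophage marker Cd68 stood at 1.399 to 2.36 FPKM and 1.14 to 2.28 FPKM, and the erythroid markers summed to 0.282 to 0.760 FPKM and 1.60 to 2.50 FPKM, without overlap. Of the 2 erythroid markers only Alas2 was higher, at 0.289 ± 0.0109 and 1.65 ± 0.529 FPKM. The globin gene Hbb-b1 stood at 0.268 ± 0.212 and 0.234 ± 0.194 FPKM, with overlapping groups, and both were under the filter and untested. Over all genes tested, 12.1% were called lower and 25.3% higher. The part of these cell types in the members' changes was not tested.

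**Figure D3:**
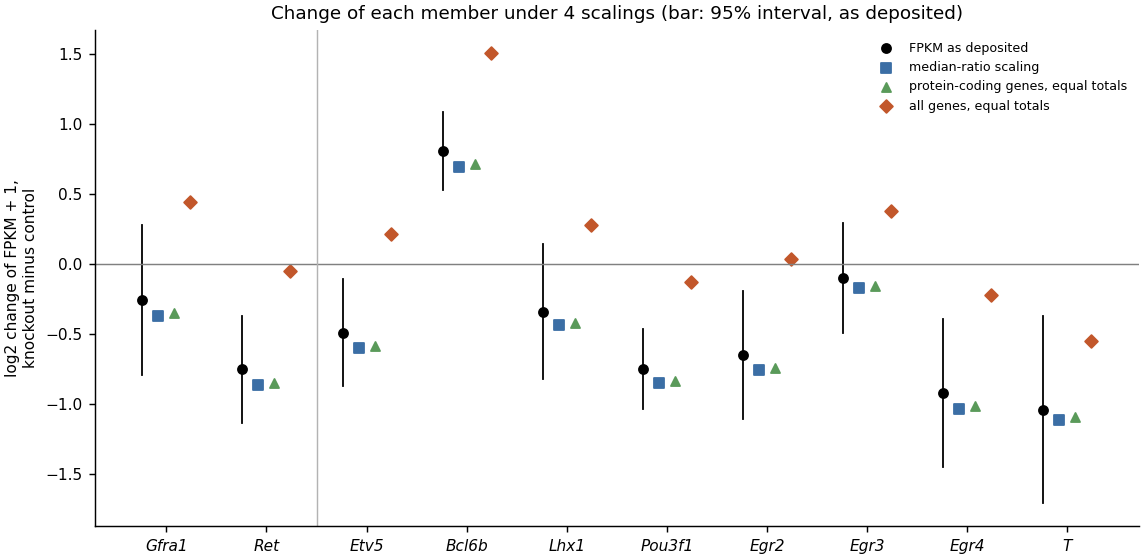
Log2 change of FPKM + 1, knockout minus control, of the 10 members under 4 scalings: as deposited (black circle, with its 95% interval as a bar), median-ratio scaling (blue square), protein-coding genes scaled to equal totals (green triangle) and all genes scaled to equal totals (orange diamond). The first 3 scalings lie close together, while equal totals over all genes lifts every member and turns the sign of Gfra1, Etv5, Lhx1, Egr2 and Egr3 from below to above 0.

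Scaling shifted the whole table and the members with it. The median log2 change of all genes tested was 0.09 as deposited, -0.01 with median-ratio scaling, 0.00 with protein-coding genes alone and 0.74 with equal totals over all genes. Relative to that median, each member kept its direction as deposited and under the 14 alternatives that did not leave out a library. This is largely built in, since a factor per library shifts all genes nearly alike and taking off the median cancels it. The trend and block settings leave the change itself as it was. The kept direction is therefore no separate test of the calls. The relative change was -0.91 to -0.78 for Ret, -0.99 to -0.84 for Pou3f1, -1.08 to -0.95 for Egr4 and -1.59 to -0.82 for T. It was -0.80 to -0.52 for Etv5, -0.82 to -0.70 for Egr2 and 0.70 to 0.78 for Bcl6b.

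The 25 transcript entries of the members were also fitted one by one, and 16 of them reached a mean of 1 FPKM. Of these, 3 were lower (Egr2-202, Pou3f1-201 and Egr4-201) and 1 was higher (Bcl6b-201), where 5.93% and 12.0% of the 26612 transcripts tested were called lower and higher. Where transcripts of a gene share sequence, Cufflinks estimates how to divide their fragments, so levels of single transcripts are less certain than those of genes.

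Ret had 2 transcript entries and Gfra1 had 5. Ret-202, which codes for 1073 residues and so for the short form of RET, made up 78.1% to 97.4% of the gene's FPKM over the 8 libraries. It stood at 35.0 ± 9.03 FPKM in the controls and 20.7 ± 5.59 FPKM in the knockouts (limma adjusted p = 0.0534). Ret-201, which codes for the long form of 1115 residues, stood at 5.07 ± 0.896 and 2.55 ± 1.41 FPKM (adjusted p = 0.0842). The 2 forms differ in the tail that binds adaptor proteins. Neither passed in this fit of all transcripts, although their sum did in the fit of genes. Where the most abundant transcript alone stood for each gene, which for Ret was Ret-202, Ret kept its call.

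Gfra1-203, which codes for 463 residues, stood at 24.0 ± 8.11 FPKM in the controls and 21.6 ± 8.21 FPKM in the knockouts (limma adjusted p = 0.747). Gfra1-201, of 468 residues, stood at 8.30 ± 1.88 and 5.32 ± 1.11 FPKM (adjusted p = 0.0706). Neither passed the test, nor did Gfra1-204 (adjusted p = 0.145), and the other 2 entries were under the filter. Etv5-201, the main Etv5 transcript, stood at 33.4 ± 7.73 and 20.1 ± 4.50 FPKM (adjusted p = 0.0556). It passed where the most abundant transcript alone stood for each gene (limma adjusted p = 0.0309). Knockout replicate 2 stood apart here, with 51.4% of the Etv5 FPKM in the Etv5-203 transcript against 2.49% to 16.9% in the other 7 libraries.

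Egr2-202 was the member transcript with the smallest adjusted p. Its knockout mean was 0.790 FPKM, so it passed the filter of 1 FPKM only through the controls, where it was high. It stood at 3.70, 2.27, 4.39 and 3.66 FPKM in the controls and at 1.03, 0.609, 0.807 and 0.710 FPKM in the knockouts, a log2 change of -1.31 (SE 0.17, limma adjusted p = 0.00165). Its share of the Egr2 FPKM was 20.01%, 16.1%, 16.9% and 14.5% in the 4 controls, by replicate number, against 10.8%, 3.92%, 6.46% and 5.14% in the knockouts, and the groups did not overlap. Egr2-201, which codes for 470 residues against 420 for Egr2-202, stood at 15.4 ± 4.79 and 9.59 ± 1.73 FPKM (adjusted p = 0.101). Their annotated starts, at 67537869 and 67537870, lie 1 base apart, so the window printed above stands before both. In knockout replicate 2, 36.7% of the Egr2 FPKM was in Egr2-203, against at most 9.92% elsewhere.

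**Figure D4:**
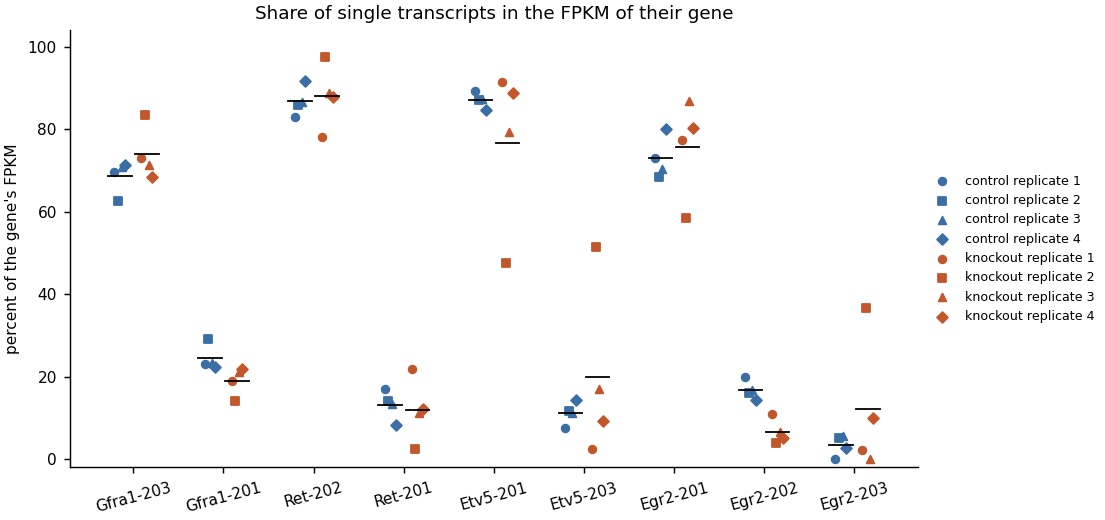
Share of single transcripts in the FPKM of Gfra1, Ret, Etv5 and Egr2 (percent), with blue symbols for controls, orange symbols for knockouts, a marker shape for each replicate and a black line at each group mean. The shares of Egr2-202 are apart, at 14.5% to 20.01% and 3.92% to 10.8%, and knockout replicate 2 (orange square) stands alone for Etv5-203 and Egr2-203.

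Among the other genes of the pathway lists, 9 were higher and 11 were lower. Some genes stand in more than 1 list and are counted once in these totals. The counts of each list below are to be read beside all genes tested, of which 25.3% were called higher and 12.1% lower. Ligands were near the floor in these sorted cells: Gdnf stood at 0.212 ± 0.168 FPKM in the controls and 0.389 ± 0.221 FPKM in the knockouts, and Nrtn, which codes for neurturin, at 0.900 ± 0.360 and 0.876 ± 0.478 FPKM. Both were under the filter and untested. Of the other co-receptors 3 were tested and none was called by limma. Ncam1, which codes for a GDNF-binding adhesion protein, had a log2 difference of 0.31 (adjusted p = 0.136), which passed without knockout replicate 2 (0.43, adjusted p = 0.0170) and with equal totals (0.86, adjusted p = 0.000744). Gfra3 stood at 4.85 ± 0.680 and 3.65 ± 0.819 FPKM (limma adjusted p = 0.0943). It passed as lower with median-ratio scaling (adjusted p = 0.0397), quantile normalization (0.0261) and protein-coding genes alone (0.0385). It also passed with small RNA genes and Mir5105 removed (0.0413) and without knockout replicate 2 (0.0228). With equal totals its log2 difference was 0.24 (adjusted p = 0.368). The other 2 co-receptors were under the filter and their groups lay apart in opposite directions. Sdc3, a syndecan, stood at 1.20 to 1.57 FPKM in control libraries and 0.445 to 0.670 FPKM in knockout libraries, and Gfra2 at 0.373 to 0.602 and 0.616 to 0.809 FPKM.

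Of 25 tested adaptors and kinases downstream of RET, 4 were lower, 2 were higher and 19 were not called, with a median log2 change of -0.08. Src, the founding Src family kinase, fell from 15.6 ± 0.994 to 9.20 ± 0.684 FPKM (limma adjusted p = 0.000254). Akt1 fell from 43.2 ± 8.32 to 23.1 ± 0.984 FPKM (adjusted p = 0.000762) and Pik3ca, a catalytic subunit of PI3 kinase, from 13.2 ± 1.52 to 9.06 ± 0.409 FPKM (adjusted p = 0.00379). In all 3 genes every knockout library was below every control library. Dok1, an adaptor that dampens kinase signalling, rose from 3.44 ± 0.881 to 5.86 ± 0.242 FPKM (adjusted p = 0.00729). With equal totals the calls of Src, Akt1 and Pik3ca were lost, and Pik3ca changed sign to 0.18.

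Of 10 other genes reported to respond to GDNF or to ETV5, 3 were higher and 1 was lower, with a median log2 change of 0.00. Etv4 is 1 of the 3 and is counted again among the close relatives of the factors, where it is described. Tspan8, a tetraspanin of the stem cell surface, stood at 4.48, 3.74, 5.77 and 7.40 FPKM in the controls and at 13.8, 25.6, 14.2 and 15.1 FPKM in the knockouts (limma adjusted p = 0.000879). Cxcr4, a chemokine receptor, rose 2.52-fold, from 6.19 ± 2.58 to 15.6 ± 1.14 FPKM (adjusted p = 0.00162). For both, every knockout library was above every control library. Nanos2, a translational repressor of stem cells, fell from 6.15 ± 2.40 to 3.33 ± 0.543 FPKM (adjusted p = 0.0450), with overlapping groups, and lost its call when any 1 of 6 libraries was left out and with equal totals (adjusted p = 0.786).

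Of 5 tested close relatives of the factors, 1 was higher, 1 was lower and 3 were not called, with a median log2 change of -0.19. Etv4, an ETS factor of the same subfamily as Etv5, stood at 25.4, 24.2, 27.8 and 36.5 FPKM in the controls and at 35.0, 75.2, 52.1 and 45.7 FPKM in the knockouts. The groups overlapped between control replicate 4 and knockout replicate 1. Etv4 rose 1.83-fold (log2 change 0.81, SE 0.22, limma adjusted p = 0.0163), where Etv5 fell. The ratio of Etv4 to Etv5 was 0.646 to 0.931 in control libraries against 1.54 to 2.64 in knockout libraries, so the more abundant of the pair was Etv5 in every control and Etv4 in every knockout.

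Bcl6, the repressor most like Bcl6b, stood at 4.04, 3.42, 4.59 and 3.67 FPKM in the controls and at 1.78, 0.925, 1.58 and 1.73 FPKM in the knockouts. Every knockout library was below every control library, where for Bcl6b every one was above. Bcl6 fell 2.61-fold (log2 change -0.99, SE 0.14, limma adjusted p = 0.000623), and with equal totals its adjusted p was 0.0504.

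Of 12 ERK feedback genes, 3 were higher, none was lower and 9 were not called, with a median log2 change of 0.08. The share called higher was close to the 25.3% of all genes tested. Spry2, a Sprouty inhibitor of receptor tyrosine kinase signalling, rose 2.12-fold, from 2.66 ± 0.876 to 5.65 ± 0.787 FPKM (limma adjusted p = 0.00267). Spred3, of the related Spred family, rose from 0.607 ± 0.101 to 1.72 ± 0.324 FPKM (adjusted p = 0.000746). Its control mean was under 1 FPKM, so it passed the filter only through the knockout libraries, where it was high. Ier3 rose from 4.35 ± 2.02 to 8.45 ± 2.48 FPKM (adjusted p = 0.0361), with overlapping groups, and lost its call when any 1 of 6 libraries was left out and with median-ratio scaling (adjusted p = 0.0501). Dusp6, a phosphatase of ERK, did not pass (adjusted p = 0.276), with 26.5 ± 8.46 against 19.9 ± 4.95 FPKM; it was picked for mention with its values known.

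Digestion of tissue can by itself induce early growth response genes, so the immediate early and dissociation genes were read beside them. Their summed level was 156.1 to 233.4 FPKM in the controls and 156.6 to 256.6 FPKM in the knockouts. Of 15 tested, 5 were lower, 1 was higher and 9 were not called, with a median log2 change of 0.08. Jund, an AP-1 subunit, fell from 18.1 ± 3.43 to 8.04 ± 1.48 FPKM (limma adjusted p = 0.000843) and Btg2, an antiproliferative gene, from 13.4 ± 1.07 to 8.86 ± 1.30 FPKM (adjusted p = 0.00463), and with equal totals the Jund call was lost (adjusted p = 0.139) and Btg2 changed sign to 0.11. Hspa1a and Hspa1b, near-identical heat shock genes whose reads are hard to split, were also lower, at 2.91 ± 0.315 against 0.997 ± 0.0966 FPKM and 6.86 ± 0.573 against 3.45 ± 0.265 FPKM (limma adjusted p = 8.05e-05 and 0.000189), and the Hspa1b call was lost with equal totals (adjusted p = 0.416). The knockout mean of Hspa1a was just under 1 FPKM, so it passed the filter through the control libraries. Ier2, the 1 called higher, rose 2.15-fold, from 11.4 ± 3.63 to 24.5 ± 5.81 FPKM (adjusted p = 0.00696), with groups apart. Fos, Fosb, Jun and Junb, AP-1 genes of this list like Jund, had log2 differences of 0.58, 0.43, 0.36 and 0.69. None of them was called (limma adjusted p of 0.0734 to 0.509), and the groups overlapped for each. The part of this response in the levels of Egr2 and Egr4 was not tested.

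**Figure D5:**
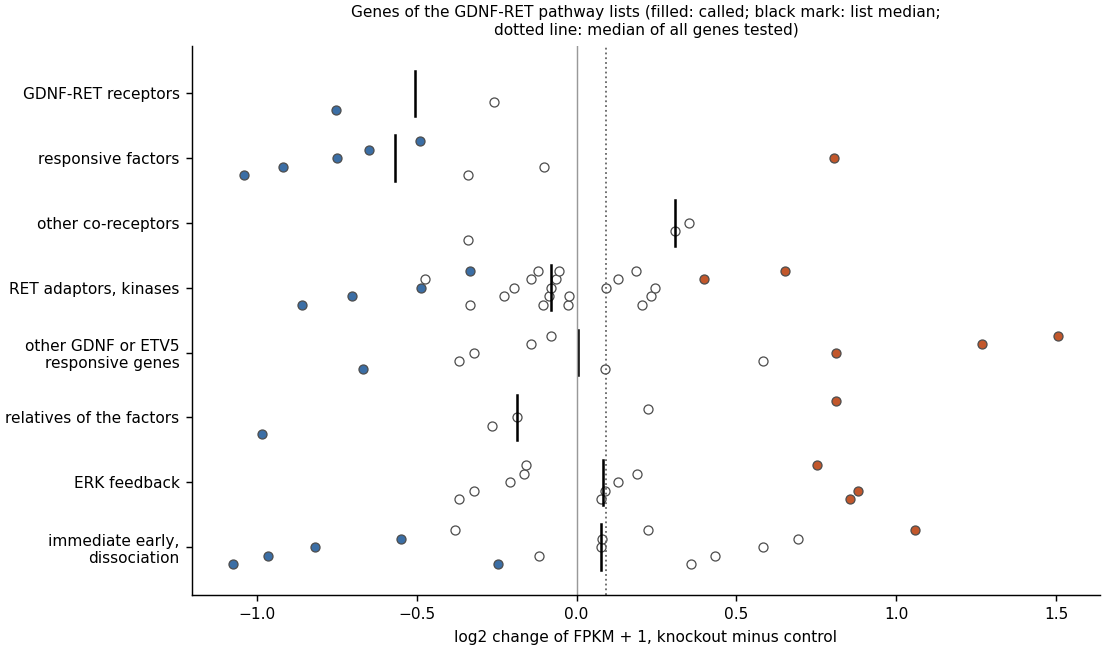
Log2 change of FPKM + 1, knockout minus control, of each tested gene of the pathway lists, with called genes filled (blue lower, orange higher), a black mark at each list's median and a dotted line at the median of all genes tested. The medians of the members, -0.51 for the receptors and -0.57 for the factors, lie left of the dotted line at 0.09. That of the relatives of the factors, -0.19, also lies left of it, and that of the other co-receptors, 0.31, lies right of it. The lists of adaptors, responsive genes, feedback genes and immediate early genes have medians between -0.08 and 0.08.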

How the data were processed

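The authors deposited FPKM per transcript and library. The submitters' processing notes name Bowtie, TopHat, Cufflinks, Cuffdiff and mm10, in no order; the sources used here give no versions, annotation release or use of strand in counting. Antisense genes overlap Gfra1 and Pou3f1, so reads of these pairs may not be told apart. Transcript values were summed by gene identifier. A gene was tested if its mean reached 1 FPKM, on log2(FPKM + 1), by limma 3.58.1 in R 4.3.3 (eBayes with trend, group as the only term, two-sided, Benjamini-Hochberg over 13483 genes, called under 0.05). FPKM are not counts, so no count model was used. The script was tested on simulated data. Depth was inferred from 7644 genes with a single transcript, where 54.9% to 65.3% of low values came within 0.1 of whole fragments, where chance gives 20%. Positions are from GENCODE M21 on GRCm38. Members and lists were chosen with earlier results of these data known. Named genes were the members, Kdm1a and, of each list, up to 4 called genes by adjusted p or else up to 2 of smallest p. Gdnf, Nrtn, Sdc3, Gfra2, Ier2, Fos, Fosb, Jun, Junb, Egr1, Dusp6, Cd68, Alas2, Hbb-b1 and Mir5105 fall outside this rule and were named with their values known, as were the transcripts. The same holds for the markers Cdh1, Upp1, Sohlh2, Rhox13, Kit, Stra8, Sohlh1 and Dmrtb1. Alternatives covered the pseudocount, filter, scaling, trend, replicate block, transcripts and each library left out.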

Additional observations from a re-analysis of the deposited data

How the results depend on the processing

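Bcl6b kept its call under every alternative, at 0.68 to 1.58 on the log2 scale. Ret, Pou3f1 and Egr4 kept theirs without each library in turn and lost them under 2 of the other 14 alternatives, equal totals (adjusted p of 0.854, 0.646 and 0.418) and removal of small RNA genes by annotation type alone. T kept its call under both of these and lost it with the most abundant transcript alone (limma adjusted p = 0.0664) and without knockout replicate 3. Egr2 also lost its call with the most abundant transcript alone (adjusted p = 0.0617), and Etv5 without the trend (adjusted p = 0.0520). The 7 members called became 2 with equal totals and 4 to 8 without each library, and the 6 called lower became 1 and 3 to 7. With equal totals Btg2 changed to 0.11, Egr2 to 0.033, Etv5 to 0.21 and Pik3ca to 0.18, the pathway genes called went from 20 to 41 (40 higher against 9, 1 lower against 11), and of all genes 9955 were called against 5052 (9808 higher, 147 lower). The pathway genes called lower were 18 with median-ratio scaling, 17 with protein-coding genes alone and 18 with quantile normalization. With small RNA genes removed 2237 genes were called higher, and with quantile normalization 2648 lower. Small RNA genes were defined by annotation type and, for genes without one, by symbol, a choice made after seeing that 200 genes by annotation type left Mir5105 in; it was the only gene added. By annotation type alone, Btg2 was 0.18, Egr2 0.10, Etv5 0.29, Pik3ca 0.25, Ret 0.020 and Src 0.033; 2 members were called (1 lower), 46 pathway genes (45 higher, 1 lower) and 10732 genes (10615 higher, 117 lower). The 2 removals of small RNA genes differ in Mir5105 alone. The median log2 change of all genes tested was 0.80 with Mir5105 left in and -0.02 with it removed. The cause of the changes with scaling was not tested further. Annotation type alone and protein-coding genes alone were added after seeing the data, as was the fit of single transcripts. Same-numbered libraries correlated in their deviations from the group means at 0.22, -0.12, -0.13 and -0.09, and not each best with its own number, so the numbers were not taken as pairs. With the replicate block 5 members were called, Etv5 (adjusted p = 0.0686) and Egr2 (adjusted p = 0.0542) being lost, and 4391 genes. T and Egr3 had the lowest mean levels of the members in both groups, nearest to the pseudocount of 1 FPKM. Whether depth limited them was not tested.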
